A study of Mus musculus with 20 samples.

Results

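The genes described here activate thyroid hormone, carry it into the brain or respond to it. They are 7 genes, Dio2, Slco1c1, Thra, Thrb, Rxrb, Hr and Klf9, out of 47729 gene identifiers in the count table, of which 16692 had enough reads to be tested. All 7 were among those tested. They were picked by name for their role, with their values in these libraries already known, so their levels are given as a description, with no p, and nothing is read from how many of them a test called.

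RNA-seq was done on the hippocampus of male C57BL/6 mice, with 20 libraries in 4 groups of 5. Young mice, aged 5 months, lived in standard cages (group 5mSC) or in enriched ones (5mEE). Old mice, aged 24 months, likewise lived in standard cages (24mSC) or in enriched ones (24mEE). Per the study's methods, enrichment was a larger cage with running wheels, tunnels and climbing objects, which the old mice entered only for their last months. Those methods do not describe enriched mice of 5 months. No group received a drug or carried an engineered allele as far as the labels say. Libraries of a group were numbered 1 to 5 in deposition order, and equal numbers in different groups mean nothing. RNA was prepared from each hippocampus sample on its own per the methods, but the labels do not name the animals, so the spread between libraries may be technical in part.

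The thyroid gland secretes mainly thyroxine (T4), a prohormone. In the brain T4 crosses the blood-brain barrier through transporters such as Slco1c1 (OATP1C1), and the type 2 deiodinase Dio2, made mainly in astrocytes and tanycytes, removes an iodine atom from it to give triiodothyronine (T3), the active hormone. T3 binds the nuclear receptors encoded by Thra and Thrb, which act together with a retinoid X receptor such as Rxrb. Among the genes that T3 raises in the brain are Hr (hairless, a corepressor of these receptors) and Klf9 (a Kruppel-like transcription factor).

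Dio2 was the gene of the 7 whose group means lay farthest apart as a ratio, and the region before its start is shown for the motifs it holds. The region before the upstream start of Thrb is shown because it holds the half-site that thyroid hormone receptors bind. Both are the 250 bases before a start given by RefSeq on GRCm38.p6, printed 5′ to 3′ on the gene's strand with the motif letters in capitals. The Dio2 window is chr12:90739039-90739288 on the minus strand, and the Thrb window is chr14:17660710-17660959 on the plus strand.
Dio2: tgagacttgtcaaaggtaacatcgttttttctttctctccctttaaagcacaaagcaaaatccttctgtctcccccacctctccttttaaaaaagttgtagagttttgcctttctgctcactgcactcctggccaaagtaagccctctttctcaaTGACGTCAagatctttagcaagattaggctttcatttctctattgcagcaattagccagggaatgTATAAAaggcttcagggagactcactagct
Thrb: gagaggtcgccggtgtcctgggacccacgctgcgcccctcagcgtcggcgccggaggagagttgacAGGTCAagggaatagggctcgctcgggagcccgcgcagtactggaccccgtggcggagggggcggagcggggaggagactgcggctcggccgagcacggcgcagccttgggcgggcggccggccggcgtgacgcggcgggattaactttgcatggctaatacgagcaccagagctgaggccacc
In the Dio2 window the capitals mark TGACGTCA, the cAMP response element, which begins 95 bases before the start, and TATAAA, the TATA box, which begins 30 bases before it. Of all 32851 windows of this length in the RefSeq table, 1.55% hold TGACGTCA on either strand and 7.59% hold TATAAA on the gene's own strand. In the Thrb window the capitals mark the half-site AGGTCA, which begins 184 bases before the start. It is found in 14.0% of all windows on either strand, and a direct repeat of it with any 4 bases between both copies in 0.0152%. The table holds windows for 5 of the 7 genes, with 2 starts each for Thrb and Rxrb. The windows of Klf9, Slco1c1 and Rxrb hold none of these letters, nor those of the E-box CACGTG (6.02% of all windows). The second window of Thrb, chr14:17981394-17981643, holds CACGTG and TATAAA. A match is a description of the letters, and no binding was measured here.

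Before any comparison, 1 library has to be named. In 5mSC replicate 3, mitochondrial ribosomal RNA took 26.8% of the counts, against 0.883 to 1.82% in the other 19 libraries. All 20 libraries were kept in the fit, and values are also given from 18 libraries, without 5mSC replicates 1 and 3. The median correlation of log2 CPM with the libraries of its own group was 0.928 for replicate 3 and 0.982 for replicate 1, and 0.985 to 0.993 for the 18 others. The libraries held 11 to 34.1 M counts in all (M, mega). Levels are given as CPM, counts per M counts after TMM scaling (a correction for library composition), and log2 fold changes come from edgeR with their standard error (SE). Marker genes of neurons (8 of 8), astrocytes (9 of 9), dentate gyrus (8 of 8), CA1 (4 of 4) and CA3 (5 of 5) were counted in every library.

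Compared per kb of exon, Thra had the highest level of the 7 genes and Hr the lowest. The mean over all 20 libraries was 176 ± 24.3 CPM per kb for Thra (SD, n = 20), 29.8 ± 4.56 for Klf9, 16.5 ± 1.39 for Rxrb, 15.03 ± 5.52 for Dio2, 11.6 ± 1.405 for Slco1c1, 6.59 ± 1.09 for Thrb and 2.12 ± 0.566 for Hr. The ranges of Thra and Klf9, of Slco1c1 and Thrb, and of Thrb and Hr did not overlap, whereas those of Klf9 and Rxrb, of Rxrb and Dio2, and of Dio2 and Slco1c1 did. Of both receptor genes Thra was therefore the more abundant, with a ratio of Thra to Thrb per kb of 28.7 ± 9.91 in 5mSC, 25.6 ± 8.37 in 5mEE, 27.1 ± 4.46 in 24mSC and 29.2 ± 8.15 in 24mEE (SD, n = 5 each). These group means of the ratio differed by less than their SD.

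**Figure D1:**
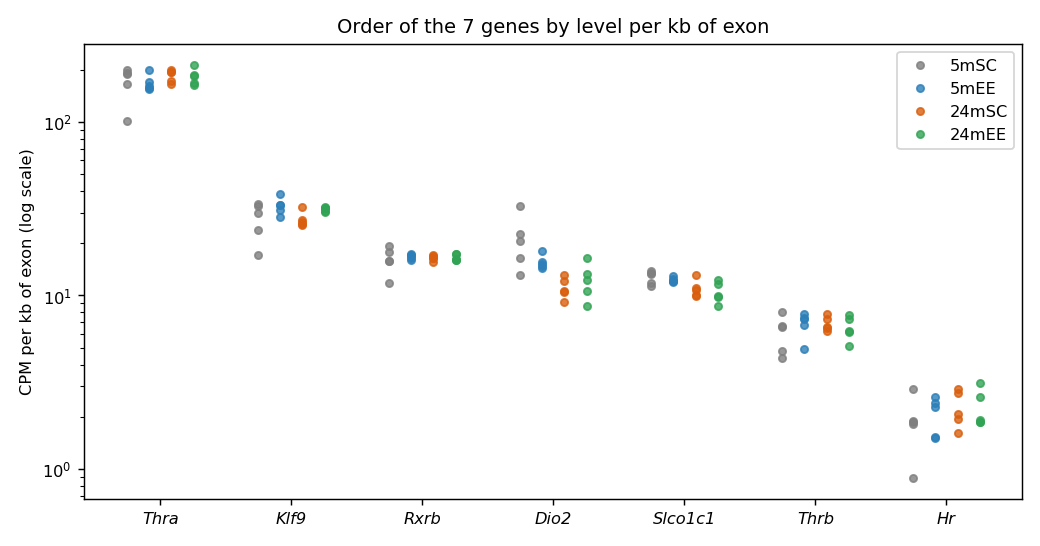
Level of the 7 genes in CPM per kb of exon (log axis), 1 point per library, coloured by group (5 libraries each), genes ordered by their mean. Thra lies between 101 and 213 CPM per kb in all libraries and Hr between 0.887 and 3.14.

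Dio2 was lower in old than in young mice in a standard cage. Dio2, the enzyme that makes T3 from T4 (ENSMUSG00000007682, GRCm38 chromosome 12, 90724552 to 90738438, minus strand), had 76.7, 130.7, 94.99, 120.3 and 190.9 CPM in 5mSC replicates 1 to 5. In 24mSC it had 53.2, 70.5, 62.1, 76.1 and 60.6 CPM. Every 24mSC library lay below every 5mSC library, although the highest 24mSC value came within 1 CPM of the lowest 5mSC value. In 5mEE the values were 83.2, 88.7, 105.6, 90.3 and 86.4 CPM, and in 24mEE they were 71.8, 77.2, 61.5, 95.9 and 50.7 CPM. The 5mEE libraries lay within the range of 5mSC and above all 24mSC libraries, and the 24mEE libraries overlapped with each of the other groups.

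The group means of Dio2 were 122.7 ± 43.6 CPM in 5mSC, 90.8 ± 8.65 in 5mEE, 64.5 ± 8.91 in 24mSC and 71.4 ± 17.02 in 24mEE (SD, n = 5 each). The log2 fold change of 24mSC against 5mSC was −0.93 ± 0.19 (SE), a level of 0.525 times that of young mice, and it was −1.20 ± 0.16 with 18 libraries. The libraries left out there, 5mSC replicates 1 and 3, were the lowest 2 of their group for Dio2, so that every difference from 5mSC is larger without them. With 1 library of both groups left out in turn it lay between −1.07 and −0.72. In the enriched environment the age difference was −0.35 ± 0.19, with 4 of 5 24mEE libraries below the 5mEE mean. Enrichment went with −0.44 ± 0.19 at 5 months (−0.70 ± 0.16 with 18 libraries) and with 0.15 ± 0.19 at 24 months. The difference between the enrichment values at both ages was 0.58 ± 0.26, and 0.85 ± 0.22 with 18 libraries. The values at 5 months and their difference from those at 24 months rest on 5mSC, whose coefficient of variation for Dio2 was 35.5%, against 9.52% in 5mEE, 13.8% in 24mSC and 23.8% in 24mEE.

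In the comparison of 24mSC with 5mSC, edgeR called 0.803% of all genes at an adjusted p under 0.05, 0.335% lower and 0.467% higher. Of the 7 genes 1, Dio2, was among the lower ones. It was not called in the fit of the 2 groups alone, where its log2 fold change was −0.94, nor without 24mSC replicate 1, 3 or 5 or 5mSC replicate 5, where its log2 fold changes were −0.88, −0.93, −0.92 and −0.72. Groups that did not overlap, with 24mSC lower, were found for 1.56% of all genes, Dio2 among them. An unadjusted p under 0.05 with a lower level was found for 11.7% of all genes and 2 of the 7. Since the 7 genes were chosen with these values known, nothing is read from these counts.

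In whole tissue, fewer cells of a type and less RNA per cell cannot be told apart. The 9 astrocyte markers, none at 0, summed to 3946 to 6576 CPM in 5mSC, 6124 to 6833 in 5mEE, 6219 to 7368 in 24mSC and 5999 to 6965 in 24mEE. The neocortex markers (8 of 8, none at 0), which report tissue from outside the hippocampus, summed to 180 to 283 CPM in 5mSC and 224 to 291 CPM in 24mSC. The striatum markers (7 of 7, none at 0) summed to 61.7 to 107 CPM in 5mSC and 103 to 117 CPM in 24mSC, and the part of astrocytes or of such tissue in the Dio2 values was not tested. The noncoding RNA Gm26512, which starts beside Dio2 on the opposite strand, shares 100 bases of exon with it (1.72% of Dio2's exon bases) and had 0.527 to 1.69 CPM. The libraries do not mark the strand, so reads of the shared bases cannot be assigned to either gene.

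**Figure D2:**
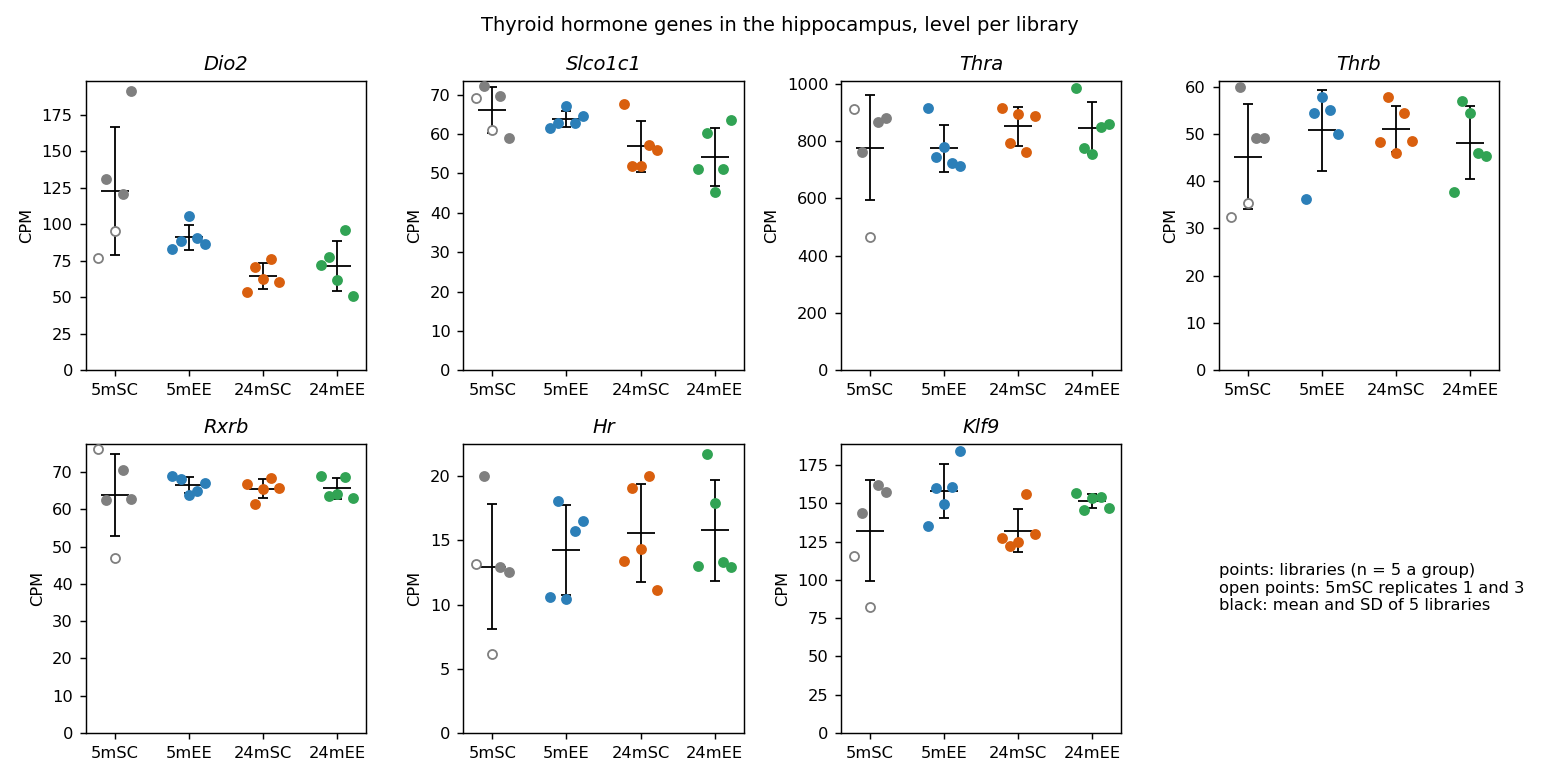
Level in CPM of each of the 7 genes for every library by group, with axes from 0; each point is a library, open for 5mSC replicates 1 and 3, and black marks give mean and SD over 5 libraries. For Dio2 the 24mSC libraries lie at 53.2 to 76.1 CPM and the 5mSC libraries at 76.7 to 190.9 CPM, while the Rxrb means differ by less than 3 CPM between the groups.

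Slco1c1, the T4 transporter of the blood-brain barrier (ENSMUSG00000030235, chromosome 6, 141524368 to 141570177, plus strand), was somewhat lower in old mice in both housings. It had 69.1, 72.2, 61.0, 69.6 and 58.9 CPM in 5mSC and 61.7, 62.9, 67.0, 62.8 and 64.5 CPM in 5mEE. It had 67.6, 51.8, 51.9, 57.3 and 56.0 CPM in 24mSC and 51.0, 60.2, 45.4, 51.2 and 63.6 CPM in 24mEE. Of the 24mSC libraries 4 lay below all of 5mSC, while replicate 1 lay within its range. The log2 fold change with age was −0.22 ± 0.09 in the standard cage and −0.23 ± 0.09 in the enriched environment, or a level of 0.860 and 0.851 times that of young mice. With enrichment it was −0.05 ± 0.09 at 5 months and −0.07 ± 0.09 at 24 months, each smaller than its SE.

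The high 24mSC replicate 1 was also the 24mSC library with the highest endothelial marker score, a mean log2 CPM of 5.03 against 4.14 to 4.37 in the others of its group. The 9 endothelial markers, none at 0, summed to 162 to 292 CPM in 5mSC, 218 to 250 in 5mEE, 195 to 356 in 24mSC and 159 to 288 in 24mEE. Without that library the age difference of Slco1c1 in the standard cage was −0.30. Slco1c1 also ran against the microglial score, with Pearson r = −0.74 and Spearman rho = −0.67 over 18 libraries, and r = −0.44 over 20. Over 18 libraries this was the largest absolute r of Slco1c1 with the 13 marker scores. With the endothelial score r was 0.49 over 18 libraries and 0.52 over 20. It was 0.57 and 0.44 with the score of meninges and pericytes, 0.52 and 0.51 with CA3, and −0.50 and −0.43 with astrocytes. The libraries differ in age, depth and dissection, and the part of the cell makeup in these values was not tested.

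Dio3, the deiodinase that inactivates T4 and T3, had only 0.443 to 7.72 CPM, or 14 to 161 reads a library, and its SD reached 2.74 CPM around a mean of 3.09 CPM in 24mSC. All 5 of the 24mEE libraries lay below the 24mSC mean for Dio3, but 24mSC replicate 5 alone had 7.72 CPM, and the adjusted p by edgeR was 0.671. Dio1, the type 1 deiodinase of liver, was at 0 in 6 libraries and did not pass the filter on low counts.

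Both thyroid hormone receptors differed little between the groups. Thra, the receptor alpha (ENSMUSG00000058756, chromosome 11, 98740638 to 98769006, plus strand), had 911, 761, 465, 866 and 882 CPM in 5mSC and 915, 745, 780, 723 and 715 CPM in 5mEE. In 24mSC it had 917, 793, 896, 763 and 887 CPM, and in 24mEE 984, 774, 755, 849 and 861 CPM. The low value of 465 CPM came from 5mSC replicate 3, and all groups overlapped. The 4 log2 fold changes of Thra with age or enrichment lay between −0.01 and 0.13, with an SE of 0.14.

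Thrb, the receptor beta (ENSMUSG00000021779, chromosome 14, 17660261 to 18038090, plus strand), had 32.5, 59.8, 35.5, 49.1 and 49.2 CPM in 5mSC and 36.2, 54.5, 57.9, 55.1 and 50.02 CPM in 5mEE. In 24mSC it had 48.4, 57.9, 46.1, 54.4 and 48.6 CPM, and in 24mEE 37.7, 57.0, 54.5, 46.0 and 45.4 CPM. All groups overlapped, and the 4 log2 fold changes lay between −0.09 and 0.17 with an SE of 0.15. The age difference in the standard cage was 0.17 with 20 libraries and −0.05 with 18, so that its sign rests on 5mSC replicates 1 and 3, the lowest 2 of that group.

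Libraries with more Thra tended to have less Thrb. Replicate 1 had the most Thra and the least Thrb of its group in 5mSC, in 5mEE and in 24mEE. Over 18 libraries the log2 CPM of both receptors had Pearson r = −0.79 and Spearman rho = −0.71, and r = −0.80 without the 2 libraries farthest from the median of Thra. Over 20 libraries r was −0.08 and rho −0.52, since 5mSC replicate 3 was low in both. The points share library preparation, depth and the cut of the tissue. With the mean log2 CPM of 6 oligodendrocyte markers, Thra had r = −0.65 and Thrb r = 0.59 over 18 libraries. Over 20 libraries these were 0.02 and 0.49. The part of the tissue makeup in the relation of both receptors was not tested.

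**Figure D3:**
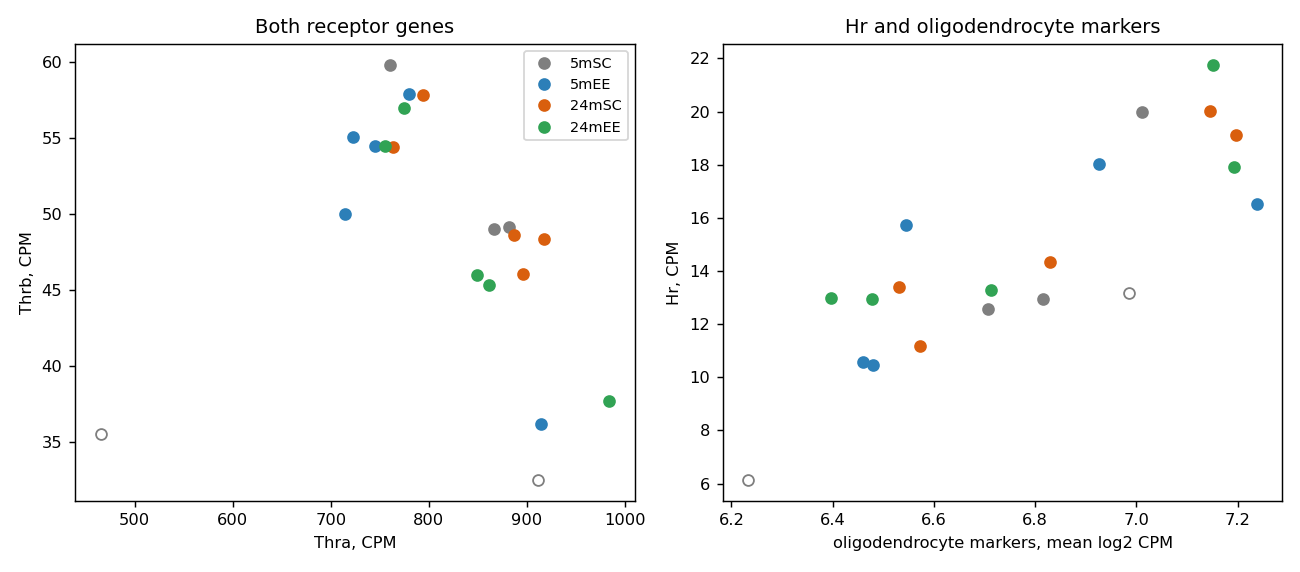
Left, Thrb against Thra in CPM; right, Hr in CPM against the mean log2 CPM of 6 oligodendrocyte markers; each point is a library, coloured by group, and open points are 5mSC replicates 1 and 3. Without the open points Thrb runs against Thra (r = −0.79, n = 18 libraries), and Hr runs with the oligodendrocyte markers (r = 0.84).

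Reads of Thra can be confused with those of Nr1d1, because the end of Nr1d1 (Rev-erb alpha, a repressor of the circadian clock) overlaps Thra on the opposite strand by 263 bases, 5.70% of Thra's exon bases. Nr1d1 had 67.9 ± 10.5 CPM in 5mSC, 66.6 ± 7.56 in 5mEE, 91.7 ± 5.35 in 24mSC and 86.9 ± 4.76 in 24mEE (SD, n = 5 each). It rose with age in the standard cage by a log2 fold change of 0.43 (edgeR adjusted p = 0.0362). In the enriched environment it stood at 0.38 (edgeR adjusted p = 0.252). The value of Thra in the first comparison was 0.13 ± 0.14. How many reads of the shared stretch belong to each gene was not tested.

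Rxrb, the retinoid X receptor beta that pairs with both receptors (ENSMUSG00000039656, chromosome 17, 34031812 to 34038399, plus strand), had the group means that lay closest together as a ratio among the 7 genes. Its means were 63.9 ± 11.02 CPM in 5mSC, 66.7 ± 2.14 in 5mEE, 65.6 ± 2.54 in 24mSC and 65.7 ± 2.87 in 24mEE (SD, n = 5 each). The libraries of 5mSC ran from 47.0 CPM in replicate 3 to 76.2 CPM in replicate 1, and those of the other groups from 61.5 to 69.1 CPM. Its 4 log2 fold changes lay between −0.02 and 0.06 with an SE of 0.09.

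Hr, a target of T3 and corepressor of its receptors (ENSMUSG00000022096, chromosome 14, 70552212 to 70573548, plus strand), varied more within the groups than between them. It had 13.2, 20.0, 6.14, 13.0 and 12.6 CPM in 5mSC and 10.6, 18.04, 10.5, 15.7 and 16.5 CPM in 5mEE. In 24mSC it had 13.4, 19.1, 14.3, 20.0 and 11.2 CPM, and in 24mEE 13.0, 21.8, 17.9, 13.3 and 13.0 CPM. All groups overlapped. Its log2 fold changes were 0.25 ± 0.23 with age in the standard cage (0.06 ± 0.23 with 18 libraries), 0.15 ± 0.23 with age in the enriched environment, 0.12 ± 0.23 with enrichment at 5 months and 0.02 ± 0.23 at 24 months.

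The spread of Hr moved with markers of oligodendrocytes, the myelin-forming cells. Over 18 libraries the log2 CPM of Hr and the mean log2 CPM of 6 oligodendrocyte markers had r = 0.84 and rho = 0.76, and r = 0.82 over 20. Without the 2 libraries farthest from the median of Hr, r was 0.80 (n = 16). These markers, none at 0, summed to 800 to 1552 CPM in 5mSC, 933 to 1741 in 5mEE, 1118 to 1689 in 24mSC and 1003 to 1954 in 24mEE. The neocortex markers had r = 0.66 with Hr over the same 18 libraries. Whether Hr RNA came from cells of the white matter or the cortex was not tested.

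Klf9, a target of T3 and of glucocorticoids (ENSMUSG00000033863, chromosome 19, 23141226 to 23168134, plus strand), had higher means in the enriched groups. It had 115, 144, 82.4, 162 and 157 CPM in 5mSC and 135, 160, 150, 161 and 184 CPM in 5mEE. In 24mSC it had 127, 122, 125, 156 and 130 CPM, and in 24mEE 156, 146, 153, 154 and 147 CPM. All 5 of the 24mEE libraries lay above the 24mSC mean and above 4 of the 5 24mSC libraries, and 24mSC replicate 4 overlapped with them. The 24mEE libraries were close together, with a coefficient of variation of 3.08%.

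The log2 fold change of Klf9 with enrichment was 0.19 ± 0.13 at 24 months, 0.20 ± 0.07 with 18 libraries, and 0.26 without 24mSC replicate 4. At 5 months it was 0.25 ± 0.13 with 20 libraries and 0.03 ± 0.08 with 18, so that this value rests on 5mSC replicates 1 and 3, the lowest of that group. With age in the standard cage it was 0.00 with 20 libraries and −0.23 ± 0.08 with 18, and with age in the enriched environment −0.06 ± 0.13. The comparisons of one age or housing share control libraries, and their values are therefore not independent.

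Markers of hippocampal subfields and of tissue beside the hippocampus also differed between the housings. The 8 dentate gyrus markers, none at 0, summed to 462 to 790 CPM in 5mSC, 487 to 847 in 5mEE, 338 to 660 in 24mSC and 606 to 756 in 24mEE. Their median log2 fold change was 0.31 for 5mEE against 5mSC (−0.14 to 0.46) and 0.30 for 24mEE against 24mSC, where all 8 lay above 0 (0.15 to 0.61). The 8 neocortex markers all lay below 0 for 24mEE against 24mSC, with a median of −0.36 (−0.91 to −0.08), and summed to 224 to 291 CPM in 24mSC and 166 to 262 CPM in 24mEE. None of the markers of either list passed edgeR's test in either comparison. Klf9 had r = 0.51 with the dentate gyrus score and −0.59 with the striatum score over 18 libraries, and 0.47 and −0.10 over 20. The part of the tissue makeup in the Klf9 values was not tested.

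**Figure D4:**
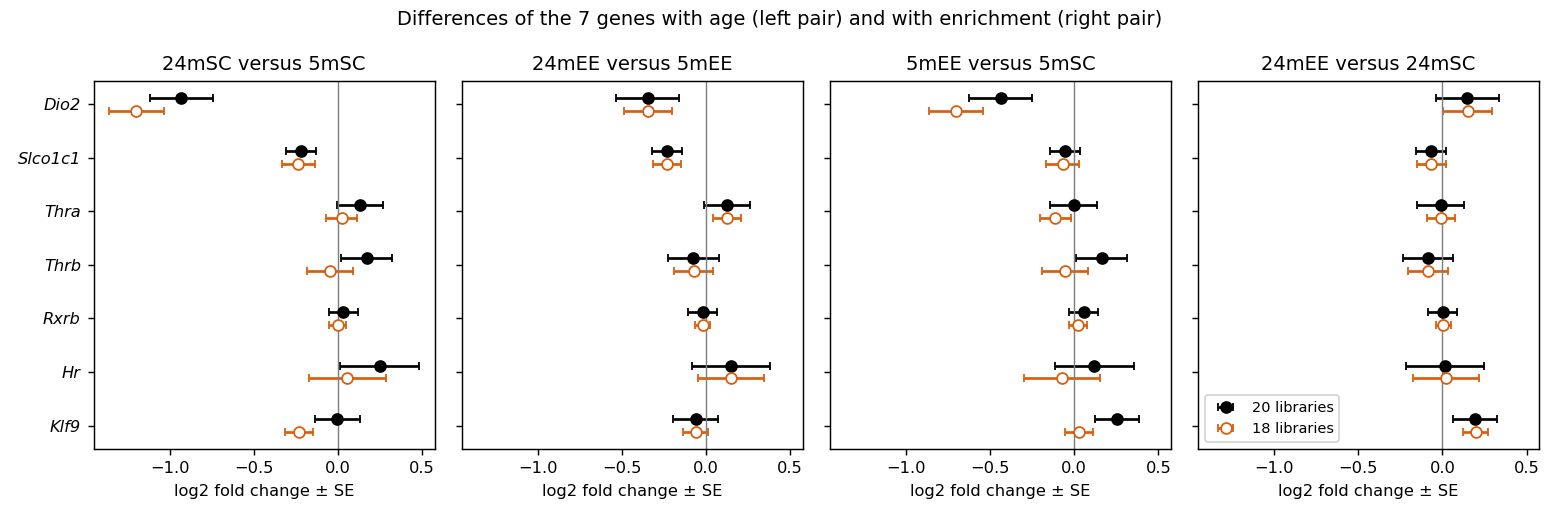
Log2 fold change with its SE of the 7 genes in 4 comparisons, 2 by age and 2 by enrichment; black points are fits of 20 libraries and open orange points fits of 18, without 5mSC replicates 1 and 3. Dio2 lies at −0.93 and −1.20 for 24mSC against 5mSC, and Klf9 moves from 0.25 to 0.03 for 5mEE against 5mSC.

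In the other comparisons none of the 7 genes was called. For 24mEE against 24mSC edgeR called 0% of all genes, and 6.21% of genes (none of the 7) had an unadjusted p under 0.05, while DESeq2 called 31 genes and limma-voom with quality weights 379, again none of the 7. For 5mEE against 5mSC edgeR also called 0%, 16.5% (1 of the 7) had an unadjusted p under 0.05 and DESeq2 called 30 genes. For 24mEE against 5mEE 0.108% of genes were called, 4.61% (1 of the 7) had an unadjusted p under 0.05 and DESeq2 called 39 genes. For the difference between the enrichment effects at both ages edgeR called 0%, 8% (1 of the 7) had an unadjusted p under 0.05 and DESeq2 called 6 genes.

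Beyond the 7 genes, 133 genes of 11 lists were looked at, of which 111 were tested. None passed edgeR's test in any of the 5 comparisons. In 24mSC against 5mSC, 10 of them had an unadjusted p under 0.05 with a higher level and 17 with a lower one, where 8.72% of all genes did so higher and 11.7% lower. DESeq2 called 5 of the 111 there, Hdac1, Itgav, Klf6, Nr4a1 and Tsc22d3, beside 4.55% of all genes, and limma-voom with quality weights called 2, Cirbp and Nr4a1, beside 1.83%. With 18 libraries 3 were called there, Cirbp, Tsc22d3 and Wsb1, beside 2.14% of all genes. These counts are near the shares over all genes. In 24mEE against 24mSC, 5 had an unadjusted p under 0.05 with a higher level and 6 with a lower one, against 2.22% and 3.99% of all genes, and limma-voom with quality weights called 3, Fkbp5, Klf5 and Klf6, beside 2.27% of all genes, while DESeq2 called none of them and 0.186% of all genes.

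Of the 18 genes that T3 raises in the brain, all were tested and 0 passed in either direction, with a median log2 fold change of 0.06 for 24mSC against 5mSC, where the median of all genes was −0.01. In that comparison 0 of the 18 had an unadjusted p under 0.05 with a higher level and 4 with a lower one. Over all genes 8.72% did so higher and 11.7% lower. For 24mEE against 24mSC the median of the 18 was 0.00, as was that of all genes. Of these genes Cbr2, a carbonyl reductase, had the smallest p, with 0.836 CPM in 5mSC and 0.316 CPM in 5mEE (log2 −1.31 ± 0.31, edgeR adjusted p = 0.223). Cbr2 had only 9 to 26 reads a library in 5mSC and 3 to 15 in 5mEE. With 18 libraries its value was −1.08 ± 0.30. Of 6 genes that T3 lowers, 5 were tested and 0 passed, with medians of −0.05 and −0.06 in the same comparisons. Cirbp, a cold-inducible RNA-binding protein in this list, had 46.0 CPM in 5mEE and 66.3 CPM in 24mEE (log2 0.53 ± 0.19, edgeR adjusted p = 0.738 with 20 libraries). With 18 libraries this Cirbp value was 0.53 ± 0.12 and was called, as were 0.572% of all genes. For 24mSC against 5mSC Cirbp stood at 0.22 ± 0.19 with 20 libraries and at 0.65 ± 0.14 with 18, where it was called, so that this value rests on 5mSC replicates 1 and 3.

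None of the genes for proteins that work with the receptors passed edgeR's test. Of 9 corepressors and 14 coactivators, all tested, 0 passed in the 5 comparisons, and for 24mSC against 5mSC their medians were 0.08 and 0.13, while the median of all genes was −0.01. In that comparison 3 coactivators and 2 corepressors had an unadjusted p under 0.05 with a higher level and 1 corepressor with a lower one. Over all genes 8.72% did so higher and 11.7% lower. For 5mEE against 5mSC the medians of corepressors and coactivators were 0.10 and 0.11, and for 24mEE against 5mEE 0.01 and −0.003. The comparisons of 24mSC and of 5mEE with 5mSC share the 5mSC libraries. Hdac1, a histone deacetylase of the corepressor complexes, had 21.5 CPM in 5mSC replicate 3 and 7.65 to 11.6 CPM in every other library of both standard-cage groups. Ppargc1a, a coactivator of energy metabolism, had 45.7 CPM in 5mSC and 57.2 CPM in 24mSC (log2 0.32 ± 0.10, edgeR adjusted p = 0.101). With 18 libraries this Ppargc1a value was 0.17 ± 0.09. Of 13 genes for other RXRs and their partners 12 were tested and 0 passed, and Nr4a1, a nuclear receptor induced by neuronal activity, had 104.8 CPM in 5mSC and 54.8 CPM in 24mSC (log2 −0.94 ± 0.26, edgeR adjusted p = 0.0720).

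Of 11 other genes of deiodination and selenoprotein synthesis 10 were tested and 0 passed. Trnau1ap is a factor of selenocysteine insertion, which deiodinases need. It had 15.5 CPM in 5mSC and 11.3 CPM in 5mEE (log2 −0.44 ± 0.12, edgeR adjusted p = 0.223). This Trnau1ap value was −0.28 ± 0.11 with 18 libraries. With 18 libraries Wsb1, part of a ubiquitin ligase that acts on the Dio2 protein, was called in 24mSC against 5mSC. Wsb1 was named after its values were seen. Of 12 other transporters 8 were tested and 0 passed, and Slco4a1 had 16.1 CPM in 5mSC replicate 3 but 0.969 to 2.19 CPM in all other libraries. Of 8 binding proteins 6 were tested and 0 passed, and Itgav, a chain of an integrin that binds T4 at the cell surface, had 69.0 CPM in 5mSC and 87.1 CPM in 24mSC (log2 0.34 ± 0.09, edgeR adjusted p = 0.0599).

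Of 18 genes of the thyroid axis and of hormone synthesis only 7 were tested, and 0 passed. Iyd, the iodotyrosine deiodinase, which recovers iodide, had 5.35 ± 0.837 CPM in 5mSC, 5.23 ± 0.867 in 5mEE, 4.03 ± 0.730 in 24mSC and 5.44 ± 0.844 in 24mEE (SD, n = 5 each). It is also among the 5 CA3 markers used here. Its log2 fold change was −0.42 ± 0.16 with age in the standard cage (edgeR adjusted p = 0.149). With enrichment at 24 months it was 0.43 ± 0.16 (edgeR adjusted p = 0.560). Both comparisons share the 24mSC libraries, among which replicate 2 had 2.74 CPM and the others 4.21 to 4.54 CPM.

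Of 9 glucocorticoid targets, which serve beside Klf9, all were tested and 0 passed. Their median was −0.28 for 24mSC against 5mSC and 0.16 for 24mEE against 24mSC, comparisons that share the 24mSC libraries. The median of all genes was −0.01 and −0.002 there. For 5mEE against 5mSC the median of the 9 targets was −0.13, and for 24mEE against 5mEE it was −0.01. Tsc22d3 (GILZ) had 75.1 CPM in 5mSC, 68.1 in 5mEE, 53.9 in 24mSC and 53.8 in 24mEE, with a log2 fold change of −0.48 ± 0.14 by age in the standard cage (edgeR adjusted p = 0.0722), and of −0.59 ± 0.14 with 18 libraries, where it was called. Of 15 other Kruppel-like factors 13 were tested and 0 passed. Their medians were 0.00 for 24mSC against 5mSC and 0.01 for 24mEE against 24mSC. Klf6 had 29.2 CPM in 5mSC, 27.9 in 5mEE, 37.1 in 24mSC and 30.8 in 24mEE. For 24mEE against 24mSC its log2 fold change was −0.27 ± 0.09 (edgeR adjusted p = 0.543). In that comparison Klf9 stood at 0.19 and Klf6 at −0.27.

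**Figure D5:**
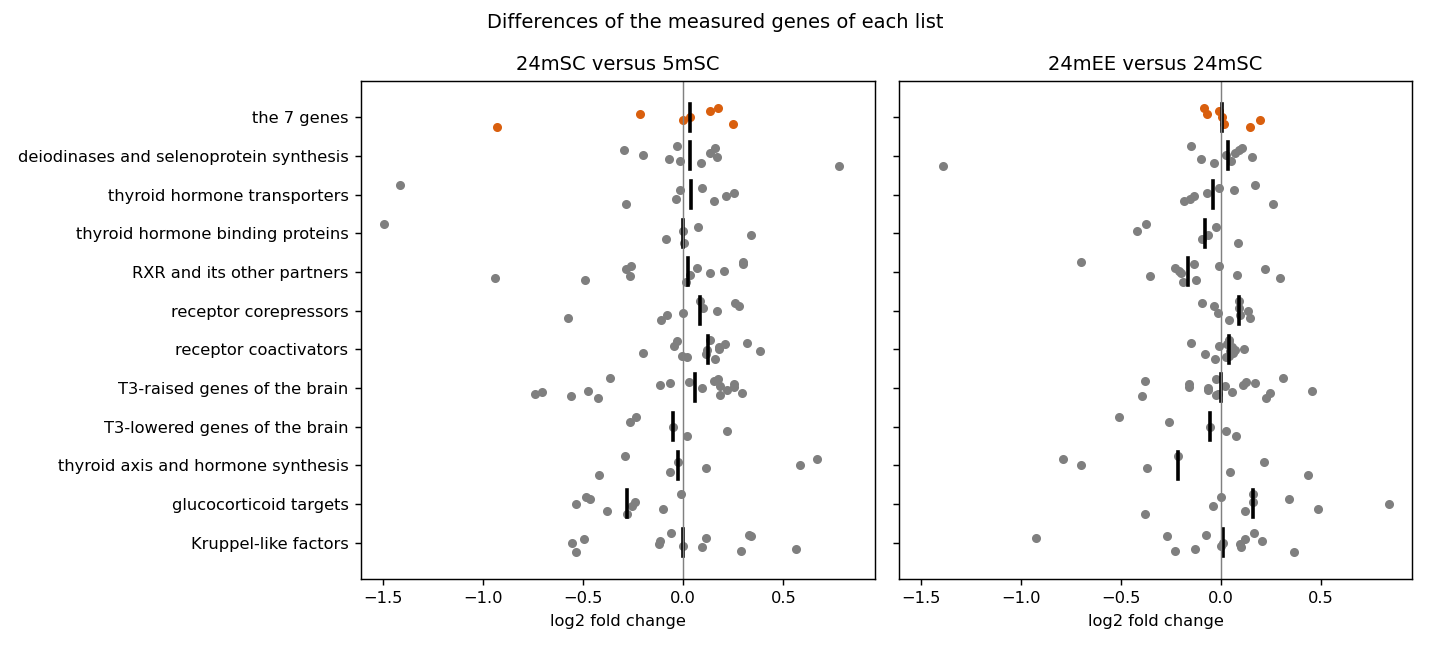
Log2 fold change of each tested gene of the 7 genes and the 11 lists, for 24mSC against 5mSC (left) and 24mEE against 24mSC (right); points are genes and black bars are medians. The median of the glucocorticoid targets lies at −0.28 on the left and 0.16 on the right, and Dio2 is the low point of the 7 genes at −0.93 on the left. Both panels share the 24mSC libraries.

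The genes whose levels ran most like those of each of the 7 were sought among 13119 genes with a mean log2 CPM of at least 1, by Pearson r of log2 CPM over 18 libraries. For Dio2 they were Hapln1, a link protein of the extracellular matrix (0.90), Atg12, an autophagy protein (0.89), and Sbk1, a kinase (0.89). For Klf9 they were Hectd2 (0.93), the transcriptional repressor Bcl6 (0.91) and Lingo3 (0.90). With the group means removed, r was 0.77 for Hapln1 with Dio2 and 0.90 for Hectd2 with Klf9, and over 20 libraries it was 0.88 and 0.36.

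For Thra the most alike were Rpusd1 (0.91), Atp6v1g2, a proton pump subunit of neurons (0.86), and Ehmt2, a histone methyltransferase (0.84), and for Thrb Dclk1, a kinase of microtubules (0.89), Slc17a6, the vesicular glutamate transporter VGLUT2 (0.88), and Pde4a, a phosphodiesterase (0.87). For Hr they were the sodium channel subunit Scn4b (0.89), Arap2 (0.89) and Gjb1, a connexin of oligodendrocytes (0.88). For Slco1c1 they were Pcdhgb2 (0.85), Noc3l (0.82) and Phrf1 (0.79), and for Rxrb Rbm15b (0.79), Cdc37 (0.77) and B4galnt1 (0.72). The median absolute r over all these genes lay between 0.19 for Slco1c1 and 0.30 for Dio2. Between the 7 genes themselves, Thrb and Hr had r = 0.62, Thra and Hr −0.65, and Dio2 and Slco1c1 0.35 over the 18 libraries.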

How the data were processed

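RNA-seq of the hippocampus was analysed in 20 libraries, 5 per group, assigned to groups by their labels. The deposited counts are whole reads per Ensembl gene, made by the authors, per the labels, by STAR 2.4.1d alignment to GRCm38 and counting in featureCounts 1.4.6-p4, after bcl2fastq 1.8.2, from single-end reads of 50 nucleotides of a kit that does not mark the strand. The study's own results came from another alignment and more libraries. The deposited RPKM values were not used, since their divisors do not follow library depth. The sequencing run, a covariate of the study, is not in the labels used here.

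The analysis used edgeR 4.0.16 under R 4.3.3. The low-count filter was filterByExpr (least count 10, least total 15), libraries were scaled by TMM, and 1 quasi-likelihood model with the 4 groups was fitted. Its 5 contrasts were adjusted by Benjamini-Hochberg over 16692 genes at 0.05. No p is given for the 7 genes, since they, the gene lists and the marker lists were chosen with earlier results of these data known. Levels are CPM on the TMM scale. Marker scores are mean log2 CPM with a prior count of 2. The relations of Thra to Thrb, of Hr to the oligodendrocyte score and of Slco1c1 to the microglial score use log2(CPM + 0.1) for the gene levels. The other correlations of the 7 genes use log2 CPM with a prior count of 2. Symbols came from GENCODE M21 (99.1% of identifiers matched), and exon overlaps from the same annotation. Promoter windows came from RefSeq on GRCm38.p6.

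The genes named are the 7 genes, of each list the passing members or else the one with the smallest p, genes whose exons overlap the 7, the 3 genes most like each of them, and Iyd. Others are marked as named after their values were seen, as are Dio3, Dio1, Fkbp5 and Klf5. Alternatives were DESeq2 1.42.0 size factors, its Wald test, no filter, a CPM of 1 in 5 libraries, only the 2 groups compared, 18 libraries, limma-voom (limma 3.58.1) with quality weights, and leaving out each library in turn. The script was tested on simulated data. Totals ranged from 11 to 34.1 M counts. A gene with no read in a library could lie at up to 3 counts, or 0.0882 to 0.329 CPM, a limit for counting error only.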

Additional observations from a re-analysis of the deposited data

Results flagged for a closer look

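In 84 checks of 21 named genes in the 4 groups, 5 libraries stood apart from the other 4 of their group by Dixon's criterion, and chance alone gives about 1 in 20. Klf9 had 156 CPM in 24mSC replicate 4, and Tsc22d3, also a glucocorticoid target, had 74.9 CPM in the same library. Iyd had 2.74 CPM in 24mSC replicate 2. Slco4a1 had 16.1 CPM and Hdac1 had 21.5 CPM in 5mSC replicate 3, the library with 26.8% mitochondrial ribosomal RNA. For Hdac1 all 5 of the 5mEE libraries lay below the 5mSC mean and all 5 of the 24mEE libraries above the 24mSC mean. The difference between both enrichment values was 0.49 ± 0.24 on the log2 scale (edgeR adjusted p = 0.628), and 0.19 ± 0.13 with 18 libraries, without 5mSC replicates 1 and 3.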

How the results depend on the processing

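The direction of the Dio2 age difference was the same under all alternatives (−1.20 to −0.72). No log2 fold change of the 7 genes moved by more than the replicate SD in any of 658 recomputed values. That SD includes 5mSC replicates 1 and 3, so it cannot show that values are stable when these are left out. For 24mSC against 5mSC Klf9 went from −0.003 to −0.23 with 18 libraries, and Thrb from 0.17 to −0.05. The counts of called genes moved more. For 24mSC against 5mSC the 134 calls became 363 with 18 libraries, 759 by DESeq2, 306 by limma-voom with quality weights, 59 without a filter and 3 with only the 2 groups. Leaving out 1 library gave 30 to 1127 calls. It gave 162, 1127, 599, 338 and 76 without 5mSC replicates 1 to 5, and 39, 57, 30, 66 and 67 without 24mSC replicates 1 to 5. For 24mEE against 24mSC the 0 calls became 10 with 18 libraries, 31 by DESeq2, 379 by limma-voom and 187 with only the 2 groups, and 0 to 1 without 1 library (1 without 24mSC replicate 4). For 5mEE against 5mSC the 0 calls became 30 by DESeq2, and 0 to 1 without 1 library (1 without 5mSC replicate 3). For 24mEE against 5mEE the 18 calls became 97 with 18 libraries, 39 by DESeq2, 162 by limma-voom, 9 without a filter and 52 with only the 2 groups. They became 8, 8, 9, 12 and 3 without 24mEE replicates 1 to 5, and 7, 7, 3, 5 and 5 without 5mEE replicates 1 to 5, a range of 3 to 12. For the interaction the 0 calls became 1 with 18 libraries and 6 by DESeq2, and 0 to 1 without 1 library (1 each without 5mEE replicates 2 and 5). The causes were not tested. No paired analysis was possible because the labels give no shared replicate numbers.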
